A study of Mus musculus with 8 samples.

Results

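Cells that carried the tdTomato label and CD24 on their surface, the gate used by the submitters for Paneth cells, were compared between irradiated and non-irradiated mice across all genes. The comparison took 5 of the 8 libraries of the series, 3 from irradiated and 2 from non-irradiated mice, chosen by their labels. The other 3 libraries held tdTomato+ CD24- cells from irradiated mice. All mice had the genotype Lyz1CreER; R26R-tdT on a mixed background of C57/BL6 and 129, were 8 to 14 weeks old and had received 1 dose of tamoxifen (10 mg per mouse). Cells of the irradiated mice were taken 5 days after radiation, whose dose is not given in the sources used here. Live cells were sorted as negative for DAPI and CD45 and positive for EpCAM, then by CD24 and tdTomato. A Cre recombinase driven by the lysozyme gene Lyz1 marks cells that express Lyz1 at the time of tamoxifen, and their progeny keep the mark. CD24 is also carried by other crypt cells, among them tuft and enteroendocrine cells, so the gate can hold them. The labels do not tie replicates to different mice, and the p-values below therefore cover the spread among these libraries alone.

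Paneth cells sit at the base of small intestinal crypts, fill their granules with antimicrobial peptides such as alpha-defensins and lysozyme, and supply Wnt, Notch and EGF ligands to the neighbouring stem cells. They divide rarely under normal conditions and carry a large endoplasmic reticulum for secretion. Ionizing radiation activates p53 and removes many cycling crypt cells, and surviving crypts then regrow.

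The values are FPKM (fragment counts scaled to transcript length and to the size of the library), and fold changes are differences of log2(FPKM + 1), which understate the change of low genes. Of 24013 gene symbols, 11190 reached 1 FPKM in at least 2 of the 8 libraries and were tested. Depth was read from the most common low value, allowing for transcript length, within a set range. If that value is 1 fragment, the 5 CD24+ libraries held about 39400000 to 45200000 fragments. The set range bounds this estimate, which rested on 33 to 51 genes per library. Lyz1 stood at 48892.5 and 19015.9 FPKM in the 2 non-irradiated libraries and at 36444.5, 33764.6 and 31455.8 FPKM in the 3 irradiated libraries. Cd24a, the gate's own gene, ranged from 620.8 to 749.7 FPKM, and Epcam from 139.7 to 277.9 FPKM. Ptprc, which encodes CD45, stayed between 0.083 and 0.539 FPKM. Markers of the sort were thus present, and the leukocyte marker near 0, in all 5 libraries. The 51 Paneth products of the lists took between 78 and 88.4% of all FPKM.

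Non-irradiated replicate 1 stood apart from the other 4 libraries. Its 51 Paneth products took 88.4% of all FPKM, against 81.4% in non-irradiated replicate 2 and 80.9, 78 and 78.8% in the irradiated libraries. Only 9362 genes reached 1 FPKM in it, against 10293 to 10555 in the others, and its median over the tested genes was 3.41 FPKM against 5.45 to 6.10. The main results are therefore given as deposited and after median-of-ratios scaling, which divides a library by its typical ratio to the geometric mean over all libraries. Some lists and genes below are given after scaling alone. The factors were 0.528 and 0.867 for the non-irradiated and 0.859, 0.993 and 0.966 for the irradiated libraries. After scaling, the medians of the 5 libraries lay between 6.14 and 6.47. The part of Paneth product content in this shift was not tested.

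**Figure D1:**
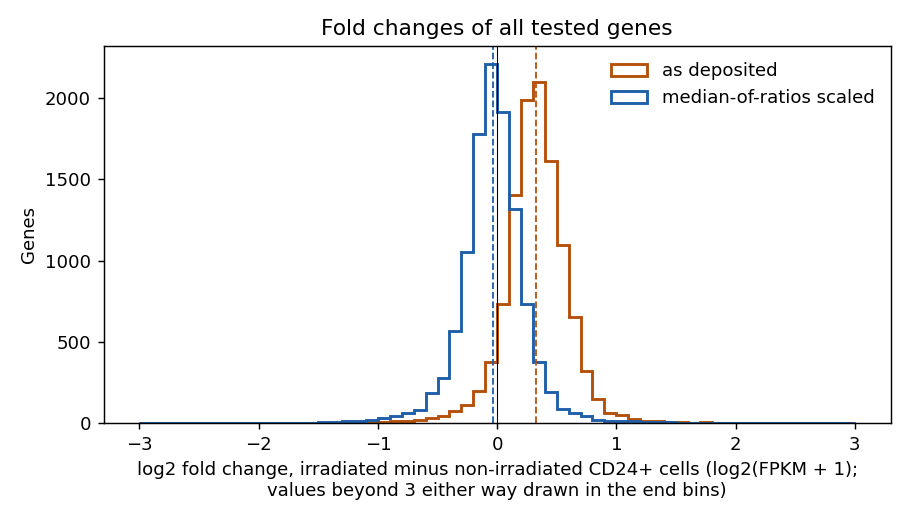
Number of genes (y axis) by log2 fold change, irradiated minus non-irradiated CD24+ cells (x axis, log2(FPKM + 1)), for all 11190 tested genes. Dashed lines mark the medians, 0.32 as deposited and -0.03 after median-of-ratios scaling, so that most of the shift to the right is removed by scaling.

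As deposited, 91.7% of the tested genes had a positive fold change and the median gene stood at 0.32 on the log2 scale. After scaling the share was 43.1% and the median -0.03. With limma and Benjamini-Hochberg adjustment over all tested genes, 0 genes (0% of those tested) passed an adjusted p of 0.05 as deposited, where 1364 genes had an unadjusted p under 0.05 in the higher direction and 60 in the lower direction. After scaling, 3 genes (0.0268%) passed, all lower after irradiation, and 290 higher and 582 lower genes had an unadjusted p under 0.05. Pnliprp1 and Siglec5 were among these 3 genes. A second description counts genes without overlap, that is with all 3 irradiated libraries on one side of both non-irradiated libraries. As deposited, 34.2% of the tested genes were higher and 1.13% lower without overlap. After scaling the shares were 11.3% higher and 16.8% lower. On both scales, 1230 genes stood higher and 124 lower, with a median scaled fold change of 0.27 and -0.83, and 44 and 40 of them differed by more than 1 on the log2 scale. These shares are the background against which each gene list below is read. They depend on which library serves as control, since after scaling 30.8% of genes were higher and 39% lower when only non-irradiated replicate 1 was used, and 21.9 and 30.5% when only replicate 2 was used.

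Pnliprp1, a pancreatic lipase-related protein, fell most clearly. It stood at 29.4 and 63.8 FPKM without irradiation and at 7.77, 7.84 and 11.7 FPKM after it. Every irradiated library lay well below both controls, and the irradiated CD24- cells averaged 0.751 FPKM. The scaled log2 fold change was -2.62 ± 0.20 (SE; limma, Benjamini-Hochberg adjusted p = 0.00824), and as deposited it was -2.15 ± 0.31 with an adjusted p of 0.103. The call for Pnliprp1 after scaling was kept in 11 of 15 alternative settings. It was lost with factors taken over the 5 CD24+ libraries, with a pseudocount of 0.1, with only the 5 CD24+ libraries in the fit and without irradiated replicate 1.

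The other lipase-related Paneth products also stood lower. Pnliprp2, which splits milk and dietary lipids, stood at 1865 and 2520 FPKM in the non-irradiated and at 753, 711 and 882 FPKM in the irradiated libraries. Clps, colipase, the cofactor that holds lipase to fat droplets, was listed at 3817 and 3304, then 2347, 2390 and 2316 FPKM. Of 5 listed genes of this kind 3 were tested, and all 3 were lower without overlap on both scales, with a median fold change of -1.48 as deposited and -1.95 scaled. Pnliprp2 and Clps did not pass the test (scaled log2 fold changes of -1.95 ± 0.47 and -1.07 ± 0.53). Pancreatic acinar cells, which also make such enzymes, were checked by 20 markers. Of the 19 summed (Zg16, a goblet cell product, was left out), 14 were at 0 in all 5 libraries, the digestive enzyme genes Cpb1, Prss1, Prss2, Pnlip, Ctrc and Cel among them, and the sum was 2.74 and 3.62 FPKM without and 2.48 to 5.43 FPKM after irradiation.

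Siglec5, a sialic acid receptor, also fell, and it belongs to the tuft cell markers, a list of genes of the chemosensory cells that answer to parasites. It stood at 1.49 and 2.46 FPKM in the non-irradiated and at 0.464, 0.737 and 0.462 FPKM in the irradiated libraries. The scaled log2 fold change was -1.27 ± 0.12 (limma, adjusted p = 0.0222). The groups were separate on both scales, while as deposited the gene did not pass (limma, adjusted p = 0.283). The call was kept in 5 of 15 alternative settings. Leaving out any 1 of the libraries non-irradiated replicate 1, non-irradiated replicate 2, irradiated replicate 1, irradiated replicate 3 or irradiated CD24- replicate 1 ended it.

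The tested tuft markers stood in the same direction. Of 29 markers 18 were tested, 15 were lower without overlap as deposited and 17 after scaling, and 0 were higher. A low marker that passes the filter through the non-irradiated libraries alone is bound to lie lower, so these counts are partly set by the filter. The median fold change of the 18 was -0.72 as deposited and -1.12 scaled, against 0.32 and -0.03 for all genes. With no filter, 28 markers had a scaled median of -0.88. All 18 tested markers lay below the median gene on both scales. With non-irradiated replicate 1 as the only control 17 of 18 were lower after scaling, and with replicate 2 all 18. Rgs13, a regulator of G protein signalling, stood at 7.72 and 9.96 FPKM, then 3.28, 5.53 and 1.93 FPKM. Alox5ap, the partner of 5-lipoxygenase in leukotriene synthesis, stood at 5.88 and 7.33 FPKM, then 2.03, 4.80 and 1.71 FPKM. Avil, an actin-binding protein of tuft cell microvilli, stood at 4.18 and 5.30 FPKM, then 1.46, 3.03 and 1.36 FPKM. Irradiated replicate 2 was the highest irradiated library for each of these genes and replicate 3 the lowest. Trpm5, the cation channel of taste and tuft cells, kept that order with 3.30 and 5.46 FPKM, then 1.53, 2.84 and 0.954 FPKM. The 29 markers summed to 62.8 and 88.7 FPKM without irradiation and to 32.2, 52.9 and 26.8 FPKM after it, and Gnb3 was at 0 in all 5 libraries. In bulk RNA, fewer cells of a type and less RNA per cell cannot be told apart.

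**Figure D2:**
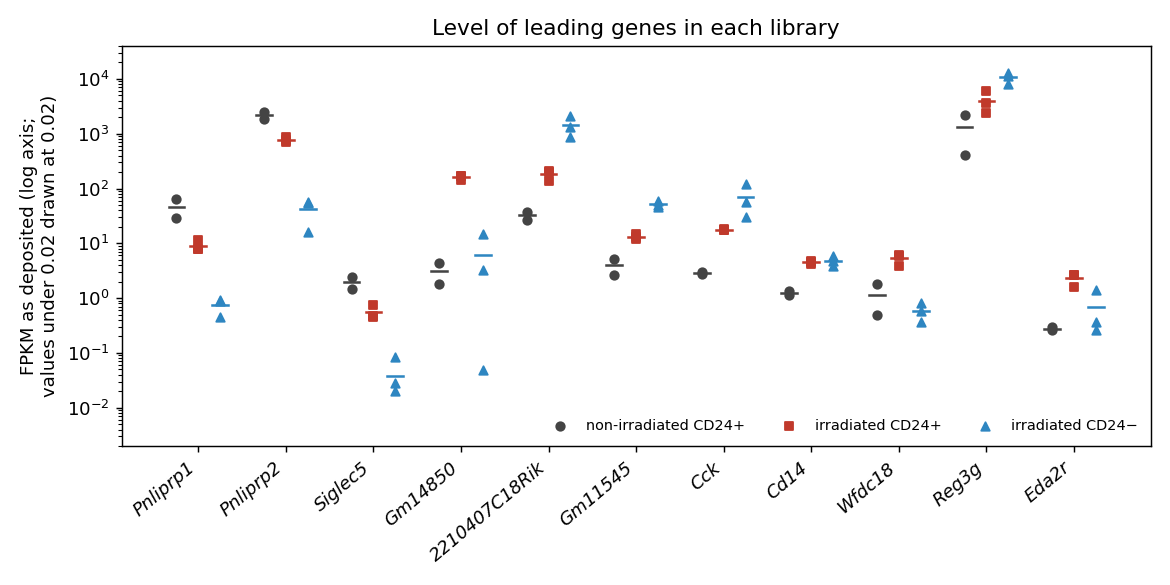
Level of 11 genes (x axis) in each library, as deposited FPKM on a log axis, with a bar at the mean of each group (2 control CD24+, 3 irradiated CD24+ and 3 CD24- libraries from irradiated mice). Pnliprp1, Pnliprp2 and Siglec5 lie lower in the irradiated than in the non-irradiated CD24+ libraries, and the other 8 genes lie higher.

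Several genes stood far higher in all 3 irradiated libraries without passing the test in the fit to all 8 libraries. With only the 5 CD24+ libraries in the fit, 5 genes passed as deposited and 0 after scaling. They were Gm14850 (limma, adjusted p = 5.3e-06), 2210407C18Rik, Cck, Mir8114 and the p53 target Eda2r. Gm14850, an alpha-defensin gene that RefSeq calls Defa37, stood at 4.37 and 1.83 FPKM in the non-irradiated and at 170, 172 and 141 FPKM in the irradiated libraries. Its log2 fold change was 5.37 ± 0.81 as deposited (limma, adjusted p = 0.103) and 5.00 ± 0.85 scaled. Both errors come from the fit to all 8 libraries, so the spread of the CD24- libraries enters them. With only the 5 CD24+ libraries in the fit the scaled SE was 0.44. Alpha-defensin genes are near-identical copies, so the share of reads given to any 1 of them is uncertain. 2210407C18Rik stood at 26.8 and 38.0 FPKM, then 206, 199 and 137 FPKM, and averaged 1435 FPKM in the irradiated CD24- cells. Gm11545, at 2.70 and 5.25 FPKM and then 12.1, 14.6 and 12.8 FPKM, came nearest to the threshold among the higher genes after scaling, with a log2 fold change of 1.19 ± 0.14 (limma, adjusted p = 0.061).

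Genes with known roles were among the highest differences too. Cck, the hormone cholecystokinin, stood at 2.78 and 2.96 FPKM, then 17.2, 17.2 and 18.2 FPKM, a scaled fold change of 1.90 ± 0.48 on the log2 scale. Cd14, the co-receptor for bacterial lipopolysaccharide, stood at 1.13 and 1.38 FPKM, then 4.15, 4.62 and 4.74 FPKM (scaled 1.02 ± 0.14). Wfdc18, a small secreted protein with a whey acidic protein fold, stood at 0.488 and 1.79 FPKM, then 3.94, 6.21 and 5.86 FPKM (scaled 1.44 ± 0.22). For Cck, Cd14 and Wfdc18 the groups were far apart relative to their inner spread, although limma's adjusted p after scaling was 0.361 for Cck and 0.123 for Cd14 and Wfdc18. Zdhhc2, a palmitoyltransferase, Uck1, a uridine-cytidine kinase, Hspa4l, a heat shock protein, and Cd177, a glycoprotein also found on neutrophils, made up the rest of the leading higher genes. Their scaled fold changes were 0.92, 0.65, 0.61 and 1.06. Of the 10 leading higher genes 6 had a higher mean in irradiated CD24- cells than in either CD24+ group, against 77.7% of all tested genes.

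Mir8114, a microRNA gene, stood at 0.121 and 0.142 FPKM without and at 15.5, 8.94 and 6.94 FPKM with irradiation, a log2 fold change of 3.27 ± 0.49 as deposited (limma, adjusted p = 0.103). Its mature sequence is shown because this gene had the second largest fold change of the leading higher genes, with the seed (bases 2 to 8) in capitals, from RefSeq on build GRCm38.p6.
mmu-miR-8114, chr1:153899989-153900009, plus strand: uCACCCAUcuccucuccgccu
The hairpin of 111 bases overlaps the first exon of Glul, glutamine synthetase, by 93 bases on the same strand, and lies within Teddm2 on the other strand. The library kit keeps no strand, and such libraries measure longer RNA, so the value counts fragments at this place and not the mature microRNA. Glul itself stood at 20.6 and 23.7 FPKM, then 26.1, 30.6 and 31.2 FPKM, with a fold change of 0.39 ± 0.21 as deposited and -0.07 ± 0.17 scaled.

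The remaining leading lower genes were of other kinds. Hbb-b1, a beta-globin of red blood cells, was listed at 1.36 and 23.99 FPKM in the non-irradiated libraries and at 0 in all 3 irradiated libraries. The 11 red blood cell markers summed to 9.35 and 57.7 FPKM without and to 4.83, 6.44 and 5.91 FPKM after irradiation, and Hba-a1, Hbb-bs and Hbb-bt were at 0 in all 5. Enpp7, an intestinal sphingomyelinase, stood at 2.62 and 12.1 FPKM, then 1.94, 1.16 and 1.18 FPKM. Fabp6, the ileal bile acid binding protein, stood at 28.8 and 22.9 FPKM, then 14.5, 9.14 and 2.88 FPKM. Both are enterocyte products and averaged 47.1 and 311 FPKM in irradiated CD24- cells. Tfpi, an inhibitor of coagulation, and Kctd12, an auxiliary subunit of GABA-B receptors, had scaled fold changes of -1.09 and -1.13. None of these 5 genes passed the test on either scale.

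Paneth products were listed as 29 tested alpha-defensins and 17 tested non-defensin granule products. The granule list also holds Pnliprp2 and Clps, which were described above. Defa6, at 216364 and 208399 FPKM without and 184646, 146158 and 182211 FPKM with irradiation, Defa24 and Gm14851 were the defensins lower without overlap on both scales. Over the 29 defensins the median fold change was -0.14 as deposited and -0.61 scaled, with 3 higher and 3 lower without overlap as deposited, and 1 and 6 scaled. That scaled median was -1.18 against non-irradiated replicate 1 and 0.05 against replicate 2, so its direction rested on the control library. Among non-defensin products 7 were lower and 3 higher without overlap as deposited and 9 and 2 scaled, with medians of 0.01 and -0.46. Pnliprp2 and Clps are counted among the lower ones on both scales. Ang4, an antimicrobial angiogenin, stood at 19134 and 20498 FPKM, then 13356, 8878 and 14702 FPKM. Itln1, the glycan-binding intelectin, stood at 37220 and 31347 FPKM, then 26225, 26391 and 24970 FPKM. Reg4, a secreted lectin of secretory cells, stood at 2326 and 3027 FPKM, then 780, 1278 and 1903 FPKM. In the opposite direction, the C-type lectin Reg3g, which binds Gram-positive bacteria, stood at 411 and 2235 FPKM, then 2420, 3566 and 6078 FPKM, and Reg3b at 175 and 1177, then 1208, 1952 and 1567 FPKM. None of the defensins or other granule products passed the test.

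Ligands that Paneth cells offer to stem cells lay near the median gene. Of 19 niche ligands 11 were tested, 2 were higher and 0 lower without overlap as deposited, and 0 and 2 scaled, with a scaled median of -0.10. Wnt3, the main Paneth Wnt ligand, stood at 21.8 and 24.4 FPKM, then 20.9, 25.4 and 19.8 FPKM. Egf stood at 5.36 and 3.42 FPKM, then 2.94, 3.56 and 2.47 FPKM. Zinc transporters and metallothioneins (23 tested), which serve zinc-loaded granules, had a scaled median of -0.18 with 0 higher and 7 lower without overlap. As deposited 2 were higher and 0 lower. Slc39a7, the zinc exporter of the endoplasmic reticulum, had a scaled fold change of -0.49 ± 0.13 and one as deposited of -0.02 ± 0.26.

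Genes of the secretory route lay low relative to the median gene. Of 35 tested ER-Golgi transport genes, 24 were lower and 0 higher without overlap after scaling, against a background of 16.8 and 11.3%. The scaled median was -0.29, and it was -0.31 against non-irradiated replicate 1 and -0.23 against replicate 2. As deposited the median was 0.17 with 2 higher and 0 lower, and only 5 of the 35 lay above the median gene, against 4 after scaling. Most of the list thus lay below the median gene on both scales, while the sign of its median fold change differed between them. Sec24d, a cargo adaptor of COPII vesicles, stood at 22.9 and 42.0 FPKM, then 24.9, 31.8 and 24.6 FPKM as deposited, and at 43.3 and 48.4, then 29.0, 32.0 and 25.5 scaled FPKM. The 33 translocon and glycosylation genes had 16 lower and 0 higher after scaling, but 0 lower and 4 higher as deposited. Srp54a, a subunit of the signal recognition particle, stood at 15.1 and 13.1, then 9.59, 8.26 and 8.04 scaled FPKM. Among 20 tested ATF4 targets of amino acid and serine synthesis 9 were lower and 1 higher after scaling, and 3 and 4 as deposited. Chac1, a glutathione-degrading enzyme induced by ATF4, stood at 2.08 and 4.07 FPKM, then 1.29, 1.46 and 1.51 FPKM (scaled fold change -1.08 ± 0.17, limma adjusted p = 0.126). Aminoacyl-tRNA synthetases (23 tested) had 9 lower and 2 higher after scaling, and 0 and 3 as deposited.

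Unfolded protein response genes, which adjust the folding capacity of the endoplasmic reticulum, also lay low relative to the median gene. Of 32 tested, 14 were lower and 1 higher after scaling, and 1 and 3 as deposited, with medians of -0.24 and 0.21. Only 9 lay above the median gene after scaling and 11 as deposited, and the scaled median was -0.22 against non-irradiated replicate 1 and -0.21 against replicate 2. Herpud1, part of the degradation machinery of the endoplasmic reticulum, was the member lower on both scales, at 97.8 and 120 FPKM, then 77.5, 97.8 and 72.2 FPKM. The groups only just parted there, with irradiated replicate 2 at 97.77 and non-irradiated replicate 1 at 97.85 FPKM. Atf4, the transcription factor of the amino acid branch, stood at 149 and 130, then 96.2, 94.2 and 89.0 scaled FPKM, and Xbp1, the factor spliced by IRE1, at 132 and 118, then 100, 89.1 and 102 scaled FPKM. As deposited, Atf4 and Xbp1 overlapped between the groups. The chaperone Hspa5, also called BiP, stood at 149 and 296 FPKM, then 231, 305 and 272 FPKM, where the groups overlapped. Canx, the membrane chaperone calnexin, was the member higher on both scales, though its scaled values of 71.8 and 71.8, then 74.9, 72.3 and 72.0 were nearly level.

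Promoters of this list are set out because its factors and chaperones carry a known control element. The ER stress element, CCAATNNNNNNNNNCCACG, was searched on both strands in the 250 bases before each RefSeq start site (build GRCm38.p6), where N is any base. It was found in 9 of 28 promoters of the 27 list members matched by symbol (32.1%), against 13 of 10721 promoters of tested genes (0.121%), of which those 9 are part. The match is a description and no test of the fold changes. Of the 10 sites, 6 are shown in the direction of the element, with its fixed bases in capitals. The CCAAT box in it is also counted among CCAAT boxes below.
Calr site, chr8:84847075-84847093: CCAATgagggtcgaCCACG
Canx site, chr11:50325800-50325818: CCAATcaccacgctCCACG
Derl3 site, chr10:75893242-75893260: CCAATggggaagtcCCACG
Hspa5 site, chr2:34772025-34772043: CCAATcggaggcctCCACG
Pdia6 site, chr12:17266491-17266509: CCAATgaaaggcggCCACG
Syvn1 site, chr19:6046532-6046550: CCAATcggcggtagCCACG
Of the genes shown, Hspa5 and Calr overlapped between the groups on both scales and Syvn1 was lower after scaling. The element was thus present in members of differing position.

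Genes of the p53 response stood higher. Of 35 tested p53 targets, 22 were higher and 0 lower without overlap as deposited and 14 and 2 after scaling, with medians of 0.50 and 0.23. The scaled median was 0.37 against non-irradiated replicate 1 and 0.17 against replicate 2. Eda2r, a TNF receptor family member, stood at 0.262 and 0.293 FPKM, then 2.64, 1.59 and 2.64 FPKM (scaled fold change 1.27 ± 0.27, limma adjusted p = 0.302). Phlda3, a repressor of Akt, stood at 0.355 and 0.486 FPKM, then 2.66, 1.98 and 4.89 FPKM. Ccng1, cyclin G1, stood at 15.6 and 19.4 FPKM, then 53.5, 37.0 and 51.2 FPKM. For these 3 genes even the lowest irradiated library lay well above the higher control. Cdkn1a, the cell cycle inhibitor p21, stood at 11.1 and 19.8 FPKM, then 31.6, 29.5 and 45.3 FPKM, and Bax, a driver of mitochondrial apoptosis, at 9.88 and 18.9 FPKM, then 22.5, 25.4 and 43.8 FPKM. Btg2 and Fbxw7 were the p53 targets lower after scaling. None of the 35 passed the test in the fit to all 8 libraries.

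DNA damage sensing and repair genes (49 tested) had 21 higher (42.9%) and 0 lower as deposited, against 34.2 and 1.13% of all genes. After scaling 13 were higher (26.5%) and 1 lower, against 11.3 and 16.8%. The scaled median was 0.22 against non-irradiated replicate 1 but 0.04 against replicate 2, where 28 of the 49 lay above the median gene. Chek2, a checkpoint kinase, stood at 2.26 and 3.98 FPKM, then 5.58, 6.33 and 7.27 FPKM. Rad54l, a recombination helicase, stood at 1.19 and 2.69 FPKM, then 2.72, 3.79 and 5.45 FPKM. Apoptosis and inflammatory cell death genes (34 tested) had 5 higher and 4 lower after scaling, near the shares of all genes, with Bok and Casp1 among the higher and Mcl1 and Ripk1 among the lower.

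Mitosis genes stood higher. All 45 were tested, 39 were higher without overlap as deposited and 36 after scaling (80%, against 11.3% of all genes), and 0 were lower. All 45 lay above the median gene on both scales, the median fold change being 0.73 as deposited and 0.36 scaled. Against non-irradiated replicate 1 alone 38 were higher after scaling, and against replicate 2 alone 40, with medians of 0.37 and 0.33. Top2a, which untangles replicated DNA, stood at 10.6 and 18.9 FPKM, then 23.8, 26.8 and 34.5 FPKM. Prc1, which bundles the midzone microtubules of the spindle, stood at 3.64 and 5.91 FPKM, then 8.32, 9.60 and 12.2 FPKM. Cdca8, a subunit of the chromosomal passenger complex, stood at 3.95 and 9.29 FPKM, then 9.66, 13.0 and 17.7 FPKM. Irradiated replicate 3 was the highest library for each of the 3 genes, and the gap between the nearest libraries of the 2 groups was small for Cdca8. Scaled fold changes of Prc1, Cdca8 and Birc5, another passenger complex subunit, were 0.56 ± 0.23, 0.58 ± 0.24 and 0.53 ± 0.20, and none of the 45 passed the test. Without irradiated replicate 3 the median of the list over the median gene was 0.27, and without replicate 1 it was 0.48.

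Most DNA replication and S phase genes overlapped between the groups. All 46 were tested, 6 were higher as deposited and 4 after scaling, and the scaled median was 0.51 against non-irradiated replicate 1 but 0.06 against replicate 2. Yet 43 of the 46 lay above the median gene as deposited and 44 after scaling. Against replicate 2 alone 37 did so after scaling. Cdt1, the licensing factor, stood at 2.26 and 5.70 FPKM, then 5.77, 8.85 and 8.43 FPKM, so that irradiated replicate 1 barely exceeded non-irradiated replicate 2.

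The promoters of 3 mitosis genes are shown because mitosis genes share the cell cycle homology region (CHR, TTTGAA) and CCAAT boxes as known control elements. Both were searched on either strand in the 250 bases before the RefSeq start sites (GRCm38.p6). The CHR was present in 18 of 42 mitosis promoters (42.9%), in 14% of S phase promoters and in 10.6% of promoters of all tested genes. CCAAT was present in 83.3% of mitosis promoters, 55.8% of S phase promoters and 35.8% of all. Unfolded protein response promoters held it in 78.6%, so a high share was not particular to mitosis genes. Of the tested genes 8428 matched the table, and 39 of the 45 mitosis genes. Capitals mark each match to either motif, and TTCAAA and ATTGG are the other strand of the 2 motifs.
Prc1 promoter, chr7:80294226-80294475, plus strand: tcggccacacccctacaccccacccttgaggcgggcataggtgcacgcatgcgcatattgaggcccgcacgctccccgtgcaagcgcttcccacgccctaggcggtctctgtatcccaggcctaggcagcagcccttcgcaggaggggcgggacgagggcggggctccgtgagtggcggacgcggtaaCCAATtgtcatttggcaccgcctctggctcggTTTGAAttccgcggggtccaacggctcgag
Top2a promoter, chr11:99024190-99024439, minus strand: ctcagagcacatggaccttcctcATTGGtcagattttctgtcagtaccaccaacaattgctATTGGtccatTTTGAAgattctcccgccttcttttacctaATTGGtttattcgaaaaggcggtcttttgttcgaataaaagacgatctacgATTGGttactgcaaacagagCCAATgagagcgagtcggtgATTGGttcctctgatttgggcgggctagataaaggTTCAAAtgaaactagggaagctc
Cdca8 promoter, chr4:124936918-124937167, minus strand: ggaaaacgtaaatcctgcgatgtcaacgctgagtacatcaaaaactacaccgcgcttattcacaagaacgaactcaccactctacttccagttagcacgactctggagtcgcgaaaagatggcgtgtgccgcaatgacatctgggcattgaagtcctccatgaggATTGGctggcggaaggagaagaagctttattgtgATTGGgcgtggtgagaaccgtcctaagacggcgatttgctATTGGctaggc
Top2a holds both motifs on both strands, the start site of Prc1 shown here holds 1 of each, and in the Cdca8 window only CCAAT was matched.

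**Figure D3:**
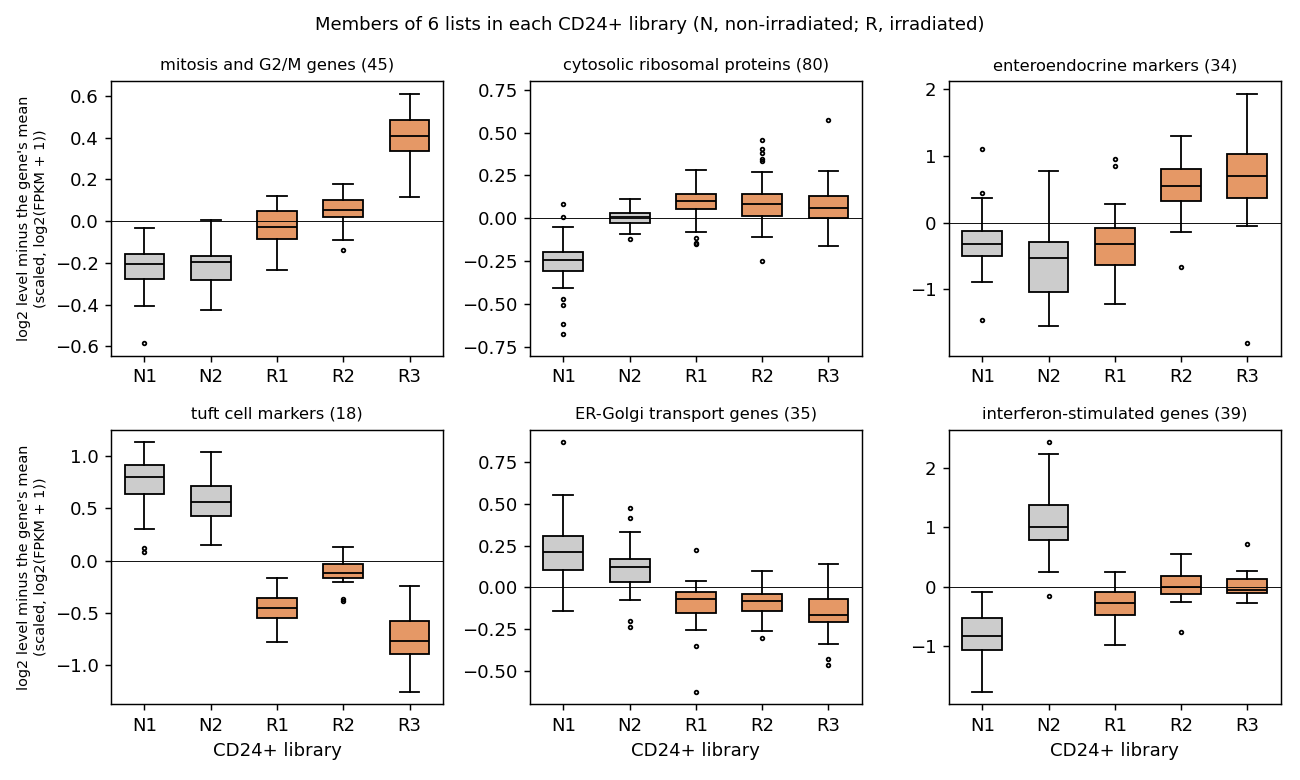
Scaled log2 level of each list member minus that gene's mean over the 5 CD24+ libraries (y axis), for the 2 non-irradiated (N1, N2) and 3 irradiated (R1 to R3) libraries. Boxes span the quartiles with the median inside, whiskers reach the usual limit beyond the box, and single points lie outside it. Rps27 lies partly outside the ribosomal panel. Mitosis and tuft members part the groups in opposite directions, interferon-stimulated genes set N1 and N2 apart, and enteroendocrine members set R1 apart from R2 and R3.

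Most tested stem cell and regeneration genes lay above the median gene, 17 of 24 and 16 of 18 after scaling. Of 24 tested crypt base columnar stem cell markers 15 were higher and 0 lower as deposited and 10 and 3 scaled (41.7 and 12.5%), with a scaled median of 0.21. Olfm4, a secreted stem cell marker, stood at 461 and 703 FPKM, then 1059, 959 and 845 FPKM, and Igfbp4, a Wnt-modulating binding protein, at 4.55 and 10.7 FPKM, then 17.9, 17.3 and 24.4 FPKM. Lgr5, the receptor that defines these stem cells, overlapped at 7.72 and 9.84 FPKM, then 10.8, 9.71 and 9.34 FPKM. These values are as deposited. After scaling, the nearest libraries of the groups were almost level for Olfm4, and the mean of Lgr5 was lower in the irradiated libraries. Of 18 tested regenerative and fetal-like genes 7 were higher as deposited (38.9%, against 34.2% of all genes). After scaling 6 were higher (33.3%, against 11.3%), with 0 lower on either scale. Their scaled median was 0.64 against non-irradiated replicate 1 and 0.20 against replicate 2. Anxa3 stood at 0.241 and 0.421 FPKM, then 1.11, 1.12 and 4.81 FPKM, so irradiated replicate 3 carried most of its mean.

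Wnt and Notch lists held genes in both directions. Wnt targets (21 tested) had 4 higher and 6 lower after scaling. As deposited 7 were higher (33.3%, against 34.2% of all genes) and 1 lower. Ccnd1, cyclin D1, stood at 6.10 and 11.9 FPKM, then 18.5, 20.9 and 20.8 FPKM, and Dkk3 at 2.92 and 3.45 FPKM, then 1.84, 2.09 and 2.08 FPKM. Notch receptors, ligands and targets (19 tested) had 3 higher and 3 lower after scaling and a median of -0.13. As deposited 7 were higher (36.8%, again near the share of all genes) and 0 lower. Hes1, a direct Notch target, stood at 4.57 and 9.31 FPKM, then 14.6, 13.9 and 10.4 FPKM (scaled 0.46 ± 0.29), and Adam10, the protease that cleaves Notch, at 8.16 and 13.9 FPKM, then 16.4, 17.3 and 18.3 FPKM. Secretory transcription factors (17 tested) lay low relative to the median gene, with 1 higher and 7 lower (41.2%) after scaling, and only 5 lay above the median gene. As deposited 4 were higher and 1 lower. Their scaled median of -0.30 became -0.38 against non-irradiated replicate 1 and -0.03 against replicate 2. Atoh1, the master factor of secretory fate, stood at 22.3 and 21.0, then 20.5, 18.4 and 17.0 scaled FPKM. The groups only just parted on that scale, and they overlapped as deposited.

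Enteroendocrine markers stood higher, unevenly among the irradiated libraries. Of 34 tested, 22 were higher and 1 lower without overlap as deposited and 16 and 1 scaled, with medians of 0.99 and 0.74. Chgb, a granin of hormone granules, stood at 46.1 and 43.0 FPKM, then 87.5, 306 and 488 FPKM. Tac1, the substance P precursor, stood at 2.65 and 4.10 FPKM, then 11.4, 39.1 and 60.5 FPKM, and Ghrl, ghrelin, at 31.3 and 33.4 FPKM, then 77.3, 152 and 215 FPKM. Irradiated replicate 1 was the lowest of the 3 for each and lay nearest the controls. Gcg, proglucagon, had replicate 2 as its highest library, at 9.86 and 5.83 FPKM, then 19.9, 35.5 and 21.6 FPKM. Without irradiated replicate 1 the median of the list over the median gene was 1.21. Reg4, which is also in the list, was the member lower on both scales. With it, the 36 markers summed to 2619 and 3377 FPKM without and to 1267, 2832 and 3640 FPKM after irradiation, and none was at 0 in all 5 libraries. Reg4, also a Paneth granule product, made up most of both non-irradiated sums, so these sums do not show the course of the other markers. None of the enteroendocrine markers passed the test in the fit to all 8 libraries.

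Goblet and enterocyte markers went the other way in part. Goblet markers (27 tested) had 2 higher and 11 lower after scaling and 4 and 1 as deposited. Fcgbp, a mucus protein, stood at 46.4 and 74.3 FPKM, then 122, 204 and 129 FPKM, and Muc2, the main mucin, at 92.9 and 159 FPKM, then 83.9, 123 and 143 FPKM. Without Spink4 and Zg16, 25 goblet markers summed to 2979 and 4112 FPKM, then 3346, 4729 and 4570 FPKM. Of 36 absorptive enterocyte markers 0 were higher and 2 lower as deposited, and 0 and 11 scaled. Their scaled median was 0.11 against non-irradiated replicate 1 and -1.22 against replicate 2, in which 33 of the 36 stood above all irradiated libraries. Their sum was 885 and 3712 FPKM without and 1757, 1484 and 2018 FPKM after irradiation. Cyp3a11, a drug-metabolizing enzyme, stood at 6.95 and 71.7 FPKM, then 3.01, 2.67 and 6.41 FPKM.

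Interferon-stimulated genes set the 2 controls apart. Of 39 tested, 1 was higher and 0 lower without overlap on each scale. Against non-irradiated replicate 1 the scaled median was 0.71 and 36 were higher, and against replicate 2 it was -1.09 and 38 were lower. Isg15, a ubiquitin-like protein, stood at 0.907 and 30.2 FPKM, then 4.31, 9.31 and 9.72 FPKM, so all irradiated libraries lay between the controls. Irf1, a transcription factor of interferon gamma responses, was the exception, at 6.56 and 12.5 FPKM, then 16.8, 17.8 and 17.2 FPKM.

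**Figure D4:**
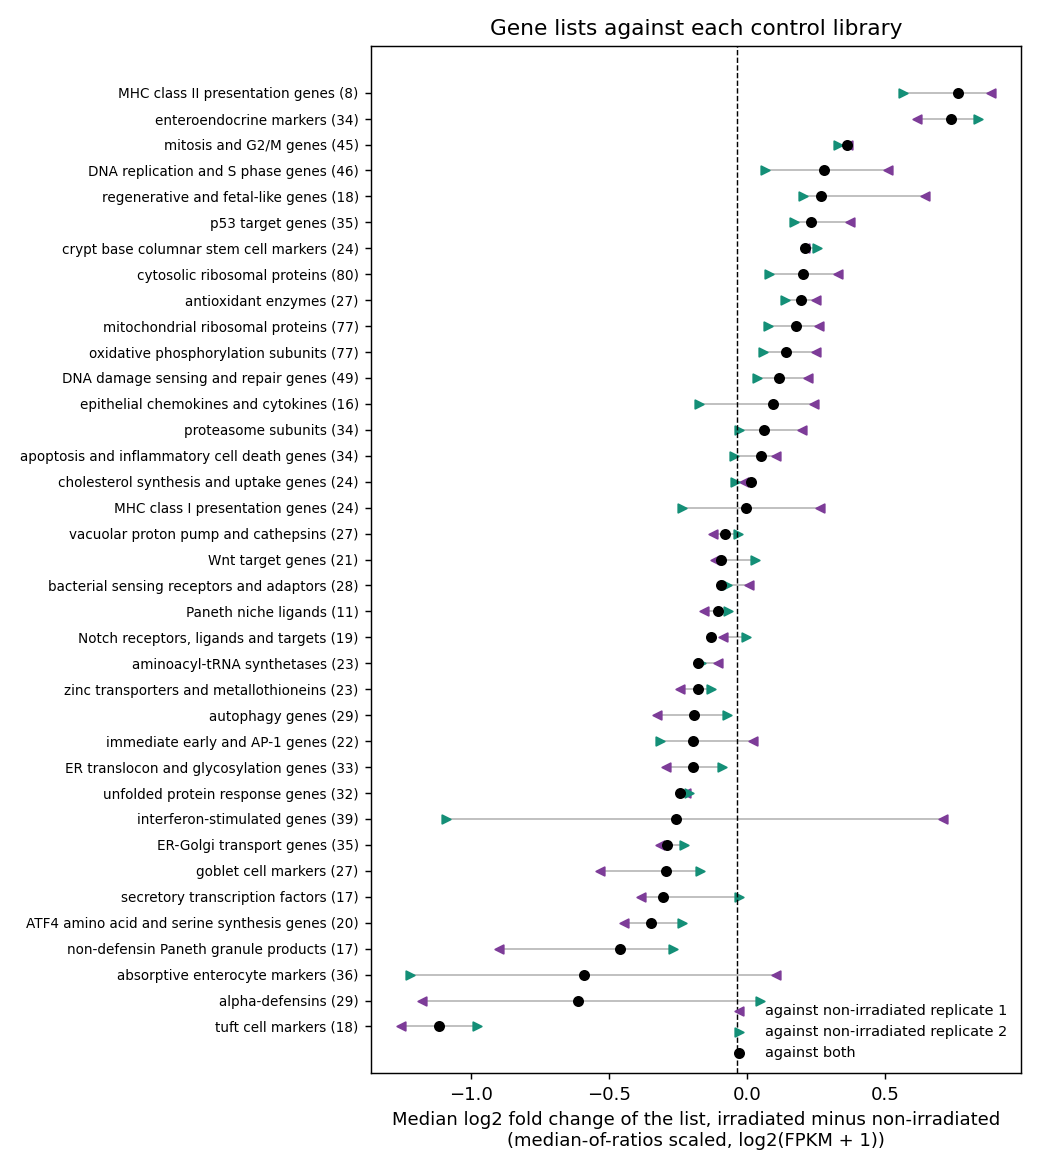
Median scaled log2 fold change of each list (x axis) against both non-irradiated libraries (circles) and against each alone (triangles), with the number of tested genes in brackets and a dashed line at the median of all tested genes. Lists with at least 5 tested genes are shown. Tuft, ER-Golgi and mitosis lists keep their side of the line under each control, while interferon-stimulated genes lie at 0.71 and -1.09.

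Antigen presentation and microbial sensing lists differed among themselves. The 8 tested MHC class II presentation genes all lay above the median gene, 5 higher without overlap as deposited and 2 scaled. Cd74, the invariant chain, stood at 5.21 and 12.9 FPKM, then 70.0, 27.7 and 14.2 FPKM, and without irradiated replicate 1 the list's median over the median gene was 0.34. Leukocyte markers, which such genes could also come with, summed without Lyz2 to 4.33 and 8.75 FPKM, then 6.48, 2.80 and 3.13 FPKM over 29 genes. Of these 28 were under 1 FPKM in all 5 libraries and Emr1, S100a8 and S100a9 were at 0. Only 4 of the 30 leukocyte markers were tested, with 0 higher and 0 lower without overlap. MHC class I genes (24 tested) had 6 higher and 4 lower after scaling, with Psme1, the proteasome activator, at 23.1 and 57.0 FPKM, then 69.0, 84.2 and 77.7 FPKM. Bacterial sensing genes (28 tested) had 6 higher and 7 lower after scaling. As deposited 10 were higher (35.7%, against 34.2% of all genes) and 1 lower. Cd14 and Pglyrp1 were among them, the latter at 321 and 378 FPKM, then 277, 312 and 278 FPKM. Chemokines and cytokines (16 tested) had 2 higher and 2 lower, with Ccl9 at 23.5 and 38.4 FPKM, then 70.5, 151 and 103 FPKM. Immediate early genes (22 tested), which also answer to cell dissociation, had 1 higher and 6 lower after scaling, and 4 and 2 as deposited. Nr4a1 stood at 1.73 and 5.18 FPKM, then 0.703, 1.72 and 1.48 FPKM, with the nearest libraries of the 2 groups almost equal.

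Ribosomal and mitochondrial lists lay above the median gene on both scales. All 80 tested cytosolic ribosomal proteins did so, with 61 higher and 0 lower as deposited and 38 and 0 scaled. Their scaled median was 0.33 against non-irradiated replicate 1 and 0.08 against replicate 2, where 39 were higher. Rplp2, of the ribosomal stalk, stood at 105 and 259 FPKM, then 304, 432 and 338 FPKM. Mitochondrial ribosomal proteins (77 tested) had 23 higher and 0 lower after scaling and oxidative phosphorylation subunits (77 tested) 21 and 0. Antioxidant enzymes (27 tested) had 8 and 1, with the peroxiredoxin Prdx6 at 23.4 and 49.8 FPKM, then 59.6, 67.6 and 72.8 FPKM. Proteasome subunits (34 tested) had 1 and 0, cholesterol synthesis genes (24 tested) 0 and 1, and autophagy genes (29 tested) 1 and 8. The vacuolar proton pump and cathepsins (27 tested) had 3 and 9, with Ctsh, cathepsin H, at 8.48 and 10.8 FPKM, then 19.7, 27.6 and 16.8 FPKM. As deposited, autophagy genes had 10 higher (34.5%) and 0 lower, and the proton pump and cathepsins 8 (29.6%) and 0. These shares were near or under the 34.2% of all genes that were higher as deposited. No gene in these 8 lists passed the test, and scaled medians lay between -0.19 and 0.20.

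Stromal and endothelial cells were checked by 22 markers, of which 3 were tested. They summed to 2.23 and 4.24 FPKM without and to 3.55, 8.24 and 12.7 FPKM after irradiation, and Col1a1, Lum, Acta2, Myh11 and Kdr were at 0 in all 5 libraries. Vim, vimentin, made up most of the irradiated sums, at 0.759 and 1.19 FPKM, then 1.88, 6.14 and 10.4 FPKM. Of the red blood cell and acinar markers 2 each were tested.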

How the data were processed

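The authors deposited 1 table of FPKM values, with a row per gene and a column per library. Genome build mm9, StringTie 1.3.4 and TopHat2 2.1.0 are named in the submitters' processing notes, without annotation or filters. Per the labels' protocols, RNA was extracted with the RNeasy Plus Micro kit and libraries made with TruSeq RNA v2, which keeps no strand. Values of near-identical copies (defensins, lysozymes, globins, ribosomal genes, pseudogenes) are uncertain, since reads can be divided among them.

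Repeated symbols were summed (24015 rows, 24013 symbols), and 0 columns of values were left out. Median-of-ratios factors used the 13376 genes above 0 in all 8 libraries. limma 3.58.1 in R 4.3.3 was fitted on log2(FPKM + 1) to all 8 libraries together (lmFit, contrasts.fit, eBayes with trend), with Benjamini-Hochberg adjustment over 11190 genes. Unless another fit is named, each SE and p-value thus also carries the spread of the CD24- libraries. Tests are two-sided, and the scripts were tested on simulated data. Plots used matplotlib 3.10.9 (Python 3.11.15). Depth was approximated from the most common low FPKM value, within a set range, of genes with 1 transcript. Transcript lengths for it came from GENCODE on build GRCm38, not from the submitters' build.

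The comparison and 42 gene lists (Paneth products, niche ligands, zinc, secretory route, signalling, stem and regenerative, damage, proliferation, immune response, metabolism and markers of other cells) were chosen with earlier results of these data known. A list is described by counts and medians without a test. Genes were named by rule: per scale and direction the 8 genes of smallest p that did not overlap on either scale and averaged 5 FPKM or more in the higher group, of each list the 3 members of smallest scaled p averaging 2 FPKM or more, and the sort genes. Siglec5, Glul, Trpm5, Gnb3, Defa6, Defa24, Ang4, Itln1, Reg4, Hspa5, Canx, Calr, Syvn1, Phlda3, Ccng1, Cdkn1a, Bax, Fbxw7, Mcl1, Ripk1, Top2a, Olfm4, Lgr5, Hes1, Atoh1, Chgb, Tac1, Ghrl, Muc2, Isg15, Rps27 and the markers listed at 0 that this rule does not hold were named after their values were seen. Some genes that the rule holds are not reported here.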

Additional observations from a re-analysis of the deposited data

How the results depend on the processing

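Each count of genes moved when certain libraries were left out, and changed little or not at all when others were. As deposited, the test called 0 genes higher and 0 lower. It called 5 higher with only the 5 CD24+ libraries in the fit, 1 lower with no filter, 1 lower after rescaling over genes outside the Paneth products and 3 lower after median-of-ratios scaling. The 5 higher genes were 2210407C18Rik, Cck, Eda2r, Gm14850 and Mir8114. With each library left out in turn the calls ranged from 0 to 5172 higher (5172 without non-irradiated replicate 2) and from 0 to 15 lower (9 without non-irradiated replicate 1, 15 without replicate 2).

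After scaling, the test called 0 higher and 3 lower. Lower calls were 0 with factors over the 5 CD24+ libraries, 0 with a pseudocount of 0.1, 0 with only the 5 CD24+ libraries in the fit, 34 with no filter, 1 with a filter at 5 FPKM and 6 with array weights. Higher calls were 5 with no filter and 2 with array weights. Leaving out each library gave 0 to 3 higher and 0 to 5 lower.

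Genes higher without overlap as deposited (3826) became 1262 with median-of-ratios scaling, 1983 with rescaling over genes outside the Paneth products and 3826 to 10145 with a library left out. Genes lower (126) became 444 with no filter, 60 with a filter at 5 FPKM, 60 with libraries rescaled to a common sum, 1882 with median-of-ratios scaling, 996 with rescaling outside the Paneth products and 126 to 1892 with a library left out. After scaling, an alternative chosen after seeing the data, 1262 higher genes became 840 with the 5 FPKM filter and 1331 to 3458 with a library left out, and 1882 lower genes became 1797 to 4346, both highest values coming without non-irradiated replicate 2. The median fold change of all genes was 0.32 as deposited, -0.03 with median-of-ratios scaling, 0.07 without non-irradiated replicate 1 and 0.59 without replicate 2, and lay between these values in the other settings. Leaving out a CD24+ library as deposited can only keep or add genes without overlap, so the direction of that change was set in advance. The cause of the other differences was not tested.

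The replicate number as a block gave 77 higher and 15 lower calls as deposited, and 0 higher and 1 lower (Pnliprp1) after scaling. Residuals of same-numbered libraries correlated at 0.23 for number 1 and -0.05 for number 2 as deposited. With only 2 controls their residuals mirror each other, so these values cannot decide whether the numbers are pairs. The labels do not say, and the numbers were not taken as pairs.

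Relative to the median gene, the direction of 4 genes reversed in some settings. Lyz1 turned to 0.16 with the replicate block and ranged from -1.12 to 0.76 with a library left out. Cd24a turned to 0.0235 with the block and ranged from -0.42 to 0.0013. Isg15 turned to 0.0121 with a pseudocount of 0.1 and ranged from -1.97 to 1.55. Glul turned to -0.0121 with a pseudocount of 0.1, -0.0323 with median-of-ratios scaling and -0.0089 with rescaling outside the Paneth products, and ranged from -0.11 to 0.22. Each of these lowest and highest values came without non-irradiated replicate 1 or 2.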

Other observations

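Atp6v0c, the proteolipid subunit of the vacuolar proton pump, and Atp6v0c-ps2, a copy of it by its symbol, took opposite positions in the CD24+ libraries. Atp6v0c stood at 0.164 and 59.1 FPKM in the non-irradiated and at 0.314, 0.538 and 0.287 FPKM in the irradiated libraries. Atp6v0c-ps2 stood at 32.3 and 0.194 FPKM, then 46.8, 68.2 and 66.1 FPKM. In each of the 5 libraries 1 of the pair was high and the other near 0, and a library high in the first was low in the second.

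Rps27, a ribosomal protein of the small subunit, was listed at 600 FPKM in irradiated replicate 1 and at 0.362 to 1.67 FPKM in the other CD24+ libraries. Steap1, a metalloreductase, was close to Cd14 in its pattern, at 0.718 and 1.27 FPKM without and 3.36, 4.40 and 4.45 FPKM after irradiation, a scaled log2 fold change of 1.14 ± 0.16 (limma, adjusted p = 0.122).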
